A study of Mus musculus with 2 samples.

Results

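Interferon-stimulated genes are the genes that cells switch on after an interferon binds its receptor. The 45 genes described here were chosen by symbol from a list of known mouse interferon-stimulated genes, and 44 of them have a row in the count table of 31053 genes. Mx2 has none. They were followed cell type by cell type in the imiquimod-inflamed back skin of wild-type (WT) mice and of mice lacking Chrna5, the gene of a nicotinic acetylcholine receptor subunit, alpha 5 (Chrna5-/-, knockout or KO). Both groups received the same 5% imiquimod cream, 62.5 mg a day on shaved backs for 6 days, and skin was taken on day 7. Imiquimod activates Toll-like receptor 7 and is used to give mice a psoriasis-like skin inflammation. The mice were females aged 6 to 8 weeks of the C57BL/6 strain, the KO line having been backcrossed for over 10 generations to C57BL/6N, although C57BL/6J is also named in the labels. Each experimental group had 5 mice per the labels, and pooling of mice in a library is not stated. Skin was digested with collagenase and live cells were sorted. Cream-base controls are not analysed here, so every value is from treated skin.

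Type I interferons (alpha, beta, kappa and others) act through IFNAR1 and IFNAR2, and interferon gamma acts through IFNGR1 and IFNGR2. Type I signalling acts on promoters mainly through the interferon-stimulated response element (ISRE), which a complex with STAT2 and IRF9 binds, whereas interferon gamma acts mainly through the gamma-activated site (GAS). In skin, keratinocytes, plasmacytoid dendritic cells, T cells and endothelium all take part in interferon responses, as sources or as responders.

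Each genotype has 1 library, so each difference is between 2 libraries, has no replicate check and has no test. The intervals given are exact 95% intervals that cover counting error only. The WT library held 14557 cell barcodes and 147260653 unique molecular identifiers (UMIs, counted RNA molecules), while 10886 barcodes with 123839924 UMIs came from KO skin. After quality filters 13938 WT and 10233 KO cells remained, with medians of 4603 and 6374 UMIs, and 44 barcodes occurred in both. Chrna5 itself gave 12 UMIs over all kept WT cells and 6 over all kept KO cells, too few to check the labels, and which exons were removed is not stated. Cells were assigned to a class by marker genes that include no member, with cutoffs set after the data were seen. Classes with at least 50 cells in each library were compared, 7 in all. Levels are given as CPM, the UMIs of a gene per 1000000 UMIs of that class in that library. A member was measured in a class at 20 or more summed UMIs, and was called higher or lower in KO where the ratio was at least 1.5-fold with an interval leaving out 1.

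Promoter windows of the members were searched for both elements. RefSeq windows (GRCm38.p6, from 250 bases before to 50 after a gene start) exist for 34 of the 45 genes, in 39 windows. The ISRE core, searched as 2 GAAA half-sites with any 2 bases between them (TTTC half-sites on the other strand), lay in 23 of the 39 windows (59.0%), against 1131 of all 32851 windows (3.44%). The palindromic GAS TTCNNNGAA lay in 10 of the 39 (25.6%), against 8.30% of all windows. Both motifs were in 8 of the 39 (20.5%), against 0.454% of all. A match is a description of letters and not of a bound site. Both strands were searched, and overlapping matches count as present. The stretches below surround the matches in members on which the later results turn, 5′ to 3′ on the strand of the gene, with the matched letters in capitals.
Isg15: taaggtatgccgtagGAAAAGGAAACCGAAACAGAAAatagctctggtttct
Ifit1: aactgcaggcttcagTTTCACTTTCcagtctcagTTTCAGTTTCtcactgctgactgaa
Ifit3: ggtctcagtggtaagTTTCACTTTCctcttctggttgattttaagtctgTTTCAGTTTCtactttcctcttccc
Rsad2: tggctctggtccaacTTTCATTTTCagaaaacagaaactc
Cxcl10: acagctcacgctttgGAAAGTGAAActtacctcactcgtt
Gbp2: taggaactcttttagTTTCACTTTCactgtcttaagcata
Irgm1: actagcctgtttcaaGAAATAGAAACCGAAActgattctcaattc
Igtp: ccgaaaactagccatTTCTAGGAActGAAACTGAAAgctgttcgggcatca
Irgm2: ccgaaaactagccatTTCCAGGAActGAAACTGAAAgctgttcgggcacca
Tgtp1: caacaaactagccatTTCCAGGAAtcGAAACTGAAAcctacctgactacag
Irf1: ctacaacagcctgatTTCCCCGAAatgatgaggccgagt

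The Isg15 stretch (chr4:156200860-156200911, minus strand) holds 3 overlapping ISRE cores. Ifit1 (chr19:34640770-34640828, plus strand) and Ifit3 (chr19:34583358-34583431, plus strand) hold 2 cores each. The same letters as in Ifit3 stand before Ifit3b (chr19:34607754-34607827, plus strand), with 0 of 74 bases different. Rsad2 (chr12:26456548-26456587, minus strand), Cxcl10 (chr5:92349078-92349117, minus strand) and Gbp2 (chr3:142620589-142620628, plus strand) hold 1 core each. Irgm1 (chr11:48871421-48871465, minus strand) has overlapping cores. In Igtp (chr11:58199496-58199546, plus strand), Irgm2 (chr11:58214887-58214937, plus strand) and Tgtp1 (chr11:48992299-48992349, minus strand) a GAS stands directly before an ISRE core. The Igtp and Irgm2 stretches differ at 2 of 51 bases. Irf1 (chr11:53769909-53769947, plus strand) has a GAS and no ISRE core in its window.

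Several members are neighbours in the genome, which matters for counting. The Ifit genes lie on chromosome 19 from Ifit2 (34550694 to 34576419) to Ifit1 (34640871 to 34650009) in mm10 (GENCODE annotation), and Rsad2 (chromosome 12, 26442746 to 26456452) is next to Cmpk2 (26469204 to 26479837). The gene models of Igtp (chromosome 11, 58199556 to 58207591) and Irgm2 (58199618 to 58222782) overlap on the same strand. Chromosomes 5 and 11 hold 7 members each. Over the last 500 transcript bases, all 91-base stretches of Tgtp1 recur in Tgtp2 (100%), 42.2% of those of Oas1a recur in Oas1g, and 6.34% of those of Ifit3 recur in Ifit3b. Values of Tgtp1 and Oas1a are therefore uncertain, and those of Ifit3, Ifit3b, Igtp and Irgm2 less certain than the rest.

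Blood-vessel endothelium was where these genes were read most. Of the 7 compared classes, vascular endothelial cells had the highest CPM for 33 of the 44 members in WT and for 39 in KO. Without Ifitm3, whose UMIs outnumber those of any other member in most classes, the summed member level in vascular endothelium was 6250 CPM in WT and 18292 CPM in KO, a ratio of 2.93. Monocytes and macrophages went from 1082 to 1705 CPM (1.58-fold), fibroblasts from 911 to 1350 (1.48-fold), keratinocytes from 257 to 474 (1.85-fold) and T cells from 402 to 493 (1.23-fold). Lymphatic endothelium read 3574 CPM in WT and 2900 CPM in KO, a ratio of 0.81. Without a single WT cell described below the WT sum was 2468 CPM and the ratio 1.18. That cell was picked for its Rsad2 UMIs and no KO cell was left out, so the ratio of the sums was bound to rise.

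**Figure D1:**
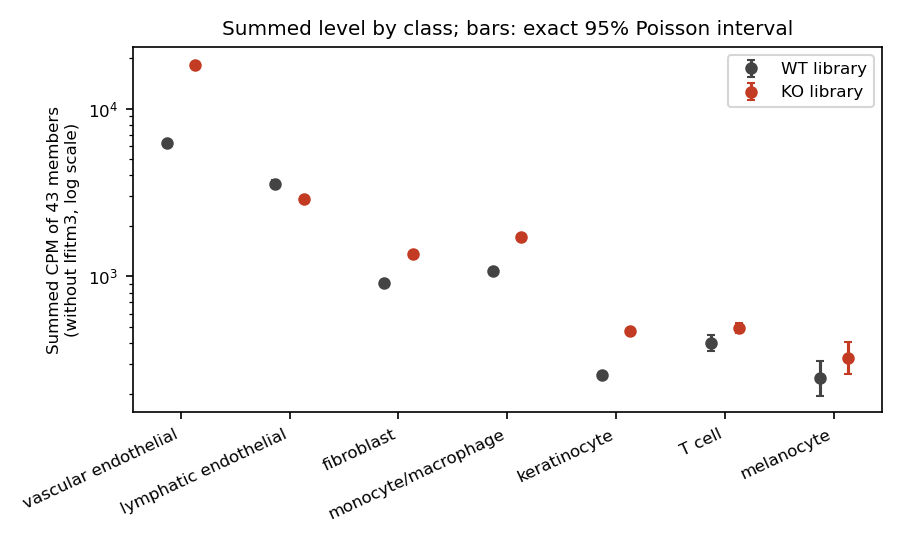
Summed level of the members in the count table without Ifitm3 (CPM, log axis) in each compared class, WT and KO library, with exact 95% Poisson intervals of counting error. Vascular endothelium stands highest in both libraries, at 6250 CPM in WT skin and 18292 CPM in KO, and the lymphatic sum is 3574 CPM in WT (2468 CPM without 1 WT cell) and 2900 CPM in KO.

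In vascular endothelium (62 WT and 136 KO cells), 40 members were measured, 37 were called higher in KO, none lower, and all 40 ratios were over 1. The median log2 ratio was 1.47, while the median over all 6892 genes measured there was -0.02. Of those genes 11.3% were called higher and 13.1% lower. The WT cells were the deeper ones, with a median of 11229 UMIs against 7618. The class markers were all detected in both libraries (9 of 9), at 4298 CPM in WT skin and 3575 CPM in KO.

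The IFIT proteins, which bind foreign RNA, were called higher in 4 of 4 members, and their sum was 459 CPM in WT and 2482 CPM in KO. Ifit1 stood at 307 CPM in WT (238 UMIs) and 1602 CPM in KO (2093 UMIs), a ratio of 5.22 (4.56 to 5.99). Ifit3 stood at 40.0 and 402.5 CPM (31 and 526 UMIs), a ratio of 10.1 (7.00 to 15.0). Ifit2 (91.6 and 400.2 CPM, 4.37-fold) and Ifit3b (20.6 and 78.1 CPM, 3.78-fold) had smaller ratios. The sharing of letters between Ifit3 and Ifit3b was not resolved.

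Viperin and its neighbour differed by a like size. Rsad2, which encodes viperin, an enzyme that makes a chain-terminating nucleotide, stood at 316 CPM in WT (245 UMIs) and 2505 CPM in KO (3274 UMIs), a ratio of 7.93 (6.96 to 9.06). Cmpk2, a mitochondrial nucleotide kinase gene, stood at 19.4 and 190.5 CPM (15 and 249 UMIs), a ratio of 9.85 (5.86 to 17.9). Vascular cells held 12.8% of all Rsad2 UMIs of the WT library and 49.8% of those of the KO library. They made up 0.445% of the kept cells in WT and 1.33% in KO, so these shares also follow the number of vascular cells captured.

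Of the group of antiviral effectors that holds Rsad2 and Cmpk2, 9 of 10 measured members were called higher. Samd9l, a translation repressor, stood at 188 and 524 CPM (2.78-fold), and Ifi44 at 47.7 and 183 CPM (3.83-fold). Bst2, the tetherin that holds budding virus at the membrane, was at 256 and 383 CPM, 1.5-fold, at the edge of the call. Ifitm3, which blocks virus entry from endosomes, was not called: its 4998 CPM in WT and 6442 CPM in KO gave a ratio of 1.29 (1.24 to 1.34). Mx1 gave 0 UMIs in WT and 19 in KO and Ifi27l2a gave 8 and 9, both under the UMI minimum.

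The ISG15 system was higher in 3 of 3 members. Isg15, a ubiquitin-like protein, stood at 141 CPM in WT (109 UMIs) and 751 CPM in KO (981 UMIs), a ratio of 5.34 (4.38 to 6.57). Usp18, the protease that removes ISG15 and restrains IFNAR2 signalling, stood at 29.7 and 135 CPM (4.54-fold). Herc6, the mouse ligase for ISG15, stood at 68.4 and 133 CPM (1.95-fold).

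Guanylate-binding proteins and immunity-related GTPases, which attack vacuoles of intracellular microbes, were higher in 9 of 9 members, with a sum of 2146 CPM in WT and 5604 CPM in KO. Iigp1 stood at 890 CPM in WT (690 UMIs) and 2135 CPM in KO (2790 UMIs), a ratio of 2.40 (2.21 to 2.61). Gbp2 stood at 454 and 1364 CPM (3.00-fold), and Irgm1 at 170 and 547 CPM (3.21-fold). The smallest ratio of the group was that of Gbp7, 1.86-fold (213 and 396 CPM).

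Sensors and transcription factors followed. Of 5 sensors of viral RNA or DNA, 4 were called higher, with Dhx58 (LGP2) at 4 and 61 UMIs (9.05-fold, 3.36 to 34.3) and Ifih1 (MDA5) at 76.1 and 210 CPM (2.76-fold). Ddx58 (RIG-I), at 101 and 123 CPM, was not called. All 4 transcription factors were higher: Stat2 3.29-fold, Irf7 2.69-fold, Irf9 1.84-fold and Irf1 1.56-fold. Of the OAS family, which makes the messenger that activates RNase L, Oasl1 (29.7 and 162 CPM, 5.47-fold) and Oasl2 (41.3 and 113 CPM, 2.74-fold), its OAS-like relatives, were higher. Oas1a was not called, Oas2 gave 1 and 7 UMIs, and Oas3 gave none in either library. The chemokines Cxcl9 (182 and 420 CPM, 2.31-fold) and Cxcl10 (750 and 1318 CPM, 1.76-fold), which attract CXCR3-bearing T cells, were both higher.

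**Figure D2:**
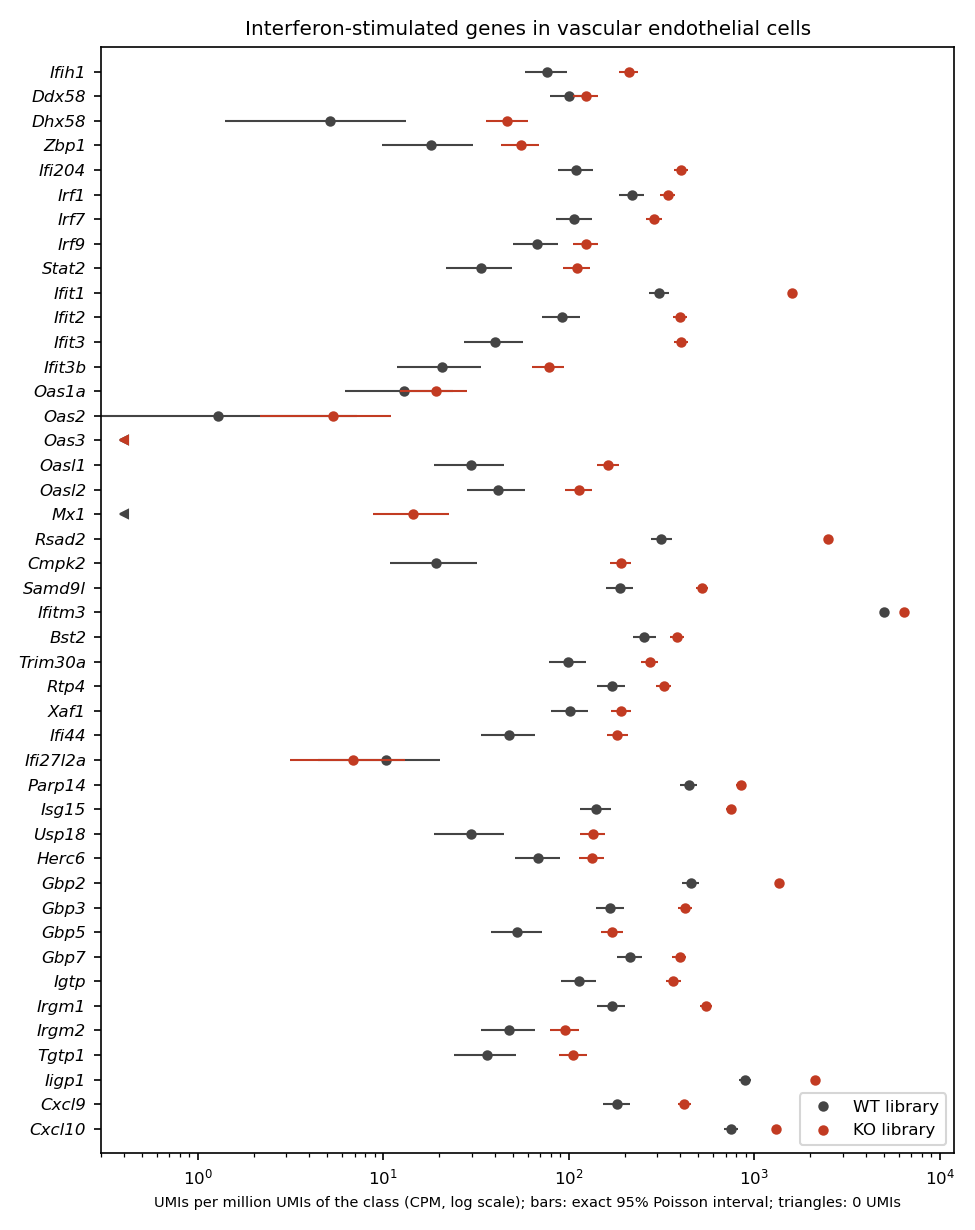
Level of each member in vascular endothelial cells (CPM, log axis) in the WT and the KO library with exact 95% Poisson intervals, ordered by role; triangles at the left edge mark members with 0 UMIs (Mx1 in WT, and Oas3 in both libraries, where the symbols coincide). Rsad2 (316 and 2505 CPM), Ifit1 (307 and 1602 CPM) and Ifit3 (40.0 and 402.5 CPM) show wide gaps, and Ifitm3 (4998 and 6442 CPM) a narrow one.

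The vascular difference was spread over cells. The highest single cell held at most 50% of a called member's UMIs in WT and at most 11.8% in KO, with medians over the called members of 14.3% and 5.29%. After thinning each cell to 1000 UMIs, 28 of 62 WT cells (45.2%, 32.5 to 58.3) and 115 of 136 KO cells (84.6%, 77.4 to 90.2) held at least 5 members. The median cell held 4 members in WT and 10 in KO, and the fullest held 12 and 21. At that depth Rsad2 was seen in 17.7% of WT and 62.5% of KO vascular cells, Ifit1 in 21.0% and 64.0%, Isg15 in 9.68% and 40.4%, and Iigp1 in 45.2% and 69.1%. At 1000 UMIs per cell most KO vascular cells thus showed several members, and a part of the WT cells showed few. Without thinning, 53 of 62 WT cells (85.5%) and 128 of 136 KO cells (94.1%) held at least 5 members. The median cell then held 17.5 members in WT and 26.5 in KO, with the WT cells the deeper ones.

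**Figure D3:**
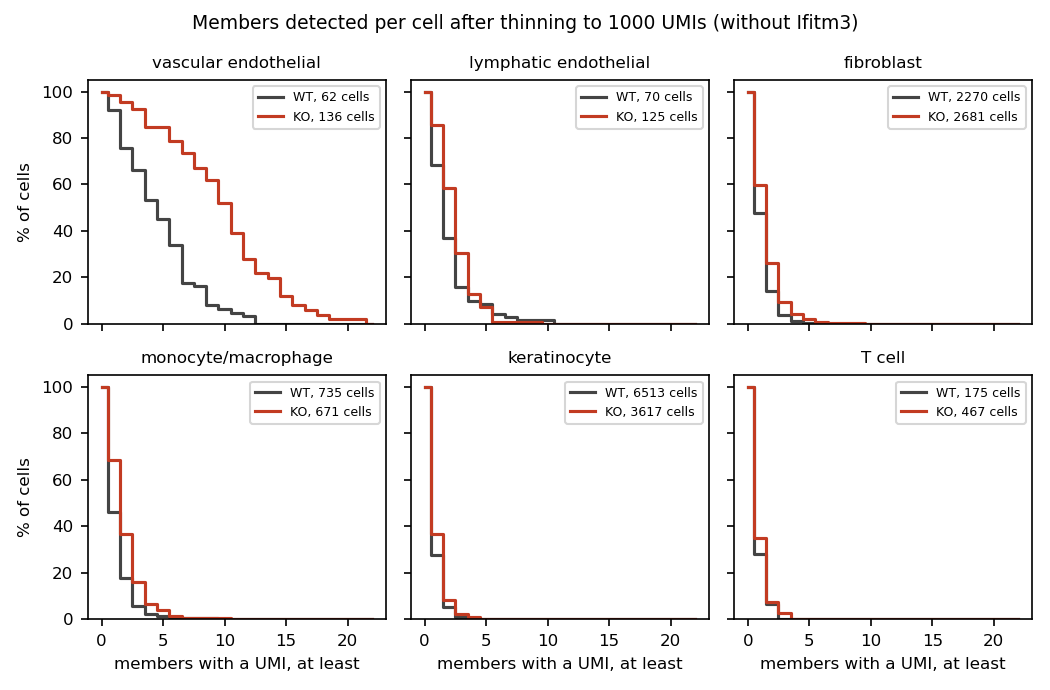
Share of cells (percent) that hold at least a given number of members without Ifitm3, after thinning each cell to 1000 UMIs, by class and library. The KO vascular curve lies above the WT curve, with 84.6% against 45.2% of cells at 5 members, while the lymphatic curves cross near 5 members (8.57% in WT and 7.20% in KO).

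Other cell properties differed between the vascular cells of the libraries. Summed keratinocyte markers were 803 CPM in WT and 445 CPM in KO, pericyte markers 123 and 356, macrophage markers 98.1 and 53.6, T cell markers 5.16 and 19.1, neutrophil markers 1.29 and 0.765, and red-cell globins 78.7 and 1205 CPM. Fibroblast markers gave 62 UMIs in WT and 238 in KO. Within the endothelium, the venule genes Ackr1 (257 and 83.4 CPM) and Sele (592 and 381 CPM) were lower in KO, as were Vwf (370 and 186) and Plvap (1769 and 830), while Ly6c1 stood at 1045 and 1423 CPM. Without cells holding Ackr1 or Sele, 29 WT and 107 KO cells remained and 36 of the 37 members were still called higher. Adding cells that also passed the pericyte gate (72 and 185 cells) kept 36 of the 37. The part of the other differences in the result was not tested.

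Lymphatic endothelium (70 WT and 125 KO cells), the other vessel lining, held members called in both directions. Of 32 measured, 8 were called higher and 7 lower in KO, against 9.14% and 5.70% of the 6475 genes measured there. The median log2 ratio was 0.22, against 0.07 over all genes. The members called higher were Irf1, Irf9, Stat2 and 5 of the 9 immunity-related and guanylate-binding GTPases. Those called lower were Rsad2, Oasl1, Ifih1, Cmpk2, Ifit1, Ifit2 and Samd9l, of which Rsad2 and Ifih1 were still called without 1 WT cell.

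Irgm1, which controls other GTPases of its family, stood at 21.7 CPM in WT (9 UMIs) and 155 CPM in KO (230 UMIs), a ratio of 7.13 (3.69 to 15.8). Iigp1 stood at 48.3 and 224 CPM (20 and 332 UMIs), a ratio of 4.63 (2.95 to 7.68). Igtp gave 4 and 77 UMIs (5.37-fold, 2.02 to 20.2), Irgm2 1 and 30, and Tgtp1 2 and 39. Of the guanylate-binding proteins, Gbp2 (198 and 251 CPM), Gbp3, Gbp5 and Gbp7 were not called. The single WT cell described below held 62.5% of the WT Gbp5 and 17.1% of the WT Gbp2 UMIs. Without it the ratios were 1.47 (1.13 to 1.93) for Gbp2 and 1.56 (0.65 to 4.54) for Gbp5. Those of Gbp3 and Gbp7 were then 1.37 and 1.03, and none of these was called. Irf1, a transcription factor of the interferon gamma response, stood at 251 and 443 CPM, a ratio of 1.76 (1.43 to 2.19). Irf9 (33.8 and 82.9 CPM, 2.45-fold) and Stat2 (26.6 and 60.0 CPM, 2.26-fold) were higher as well.

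The lower members rested in large part on 1 WT cell. Rsad2 stood at 1040 CPM in WT (431 UMIs) and 134 CPM in KO (199 UMIs), 7.76-fold lower in KO, Oasl1 at 91.7 and 9.43 CPM (9.73-fold lower) and Ifih1 at 246 and 37.1 CPM (6.65-fold lower). A single WT cell of 16829 UMIs (class median 4447) held 500 of the 1481 member UMIs of the WT class without Ifitm3 (33.8%), but 4.06% of all its UMIs. It held 52.2% of the Rsad2, 86.8% of the Oasl1, 75% of the Cmpk2, 52.7% of the Ifit1 and 26.5% of the Ifih1 UMIs, and no Irf1 or Iigp1. All 6 lymphatic markers were detected in it, with 408 UMIs, and macrophage markers gave 1 UMI. Without it 8 members were still called higher and 2 lower, Ifih1 (ratio 0.196, 0.136 to 0.282) and Rsad2 (ratio 0.259, 0.212 to 0.316). Ifit1 then had a ratio of 1.13 and Cmpk2 of 1.14, and the median log2 ratio over members was 0.46.

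In thinned lymphatic cells, Rsad2 was seen in 14.3% of WT and 4.80% of KO cells, Iigp1 in 1.43% and 10.4%, and Irgm1 in 2.86% and 8.80%. Ifitm3 (4303 and 4285 CPM), Cxcl10 (468 and 393 CPM) and Isg15 (234 and 160 CPM) were not called. Lymphatic markers summed to 18246 CPM in WT and 13229 CPM in KO, keratinocyte markers to 1518 and 377 CPM, and macrophage markers to 319 and 187 CPM. The part of these in the result was not tested.

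The lymphatic values can be set out by the interferon that members are best known to follow, in lists that leave out Irf9 and Stat2. Of 11 members that lean to interferon gamma (Irf1, guanylate-binding proteins, GTPases and Cxcl9 among them), 10 were measured in lymphatic endothelium, 6 were higher and 0 lower, with a median log2 ratio of 1.51. Of 20 that lean to type I interferon, 12 were measured, 0 were higher and 6 lower, with a median of -0.70. Without the WT cell with most Rsad2 UMIs, 2 of 11 were lower and the median was 0.0059, while the gamma list kept 6 of 10 higher with a median of 1.46. No KO cell was left out for these values, so they do not show the lists with both libraries trimmed alike. In vascular endothelium the same lists gave 11 of 11 and 15 of 17 higher, with medians of 1.34 and 2.13. By window letters, vascular members with an ISRE core were higher in 18 of 21 (median 1.55) and those with none in 12 of 12 (median 1.44). Those with a GAS were higher in 8 of 10 (median 0.95) and those with none in 22 of 23 (median 1.48).

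**Figure D4:**
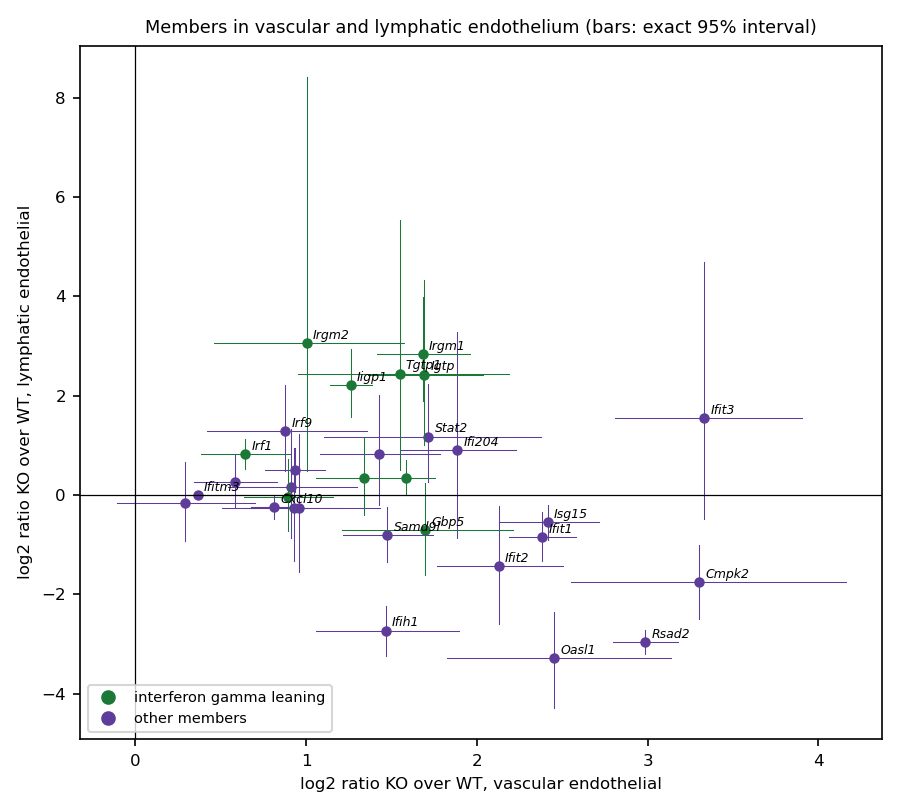
Log2 ratio of KO over WT for each member measured in both vessel linings, vascular on the horizontal and lymphatic on the vertical axis, with exact 95% intervals of counting error. All points lie right of 0, while Irgm1, Igtp and Iigp1 lie above 0 and Rsad2, Oasl1 and Ifih1 below it on the vertical axis.

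In fibroblasts (2270 WT and 2681 KO cells), the matrix-making cells of the dermis, 30 of 38 measured members were called higher and none lower. The background was 13.3% of 12877 genes higher and 6.99% lower. The median log2 ratio was 1.06, against 0.10 over all genes. Median depths were 7354 and 6542 UMIs per cell. Summed keratinocyte markers were 1166 CPM in WT and 646 CPM in KO fibroblasts, macrophage markers 95.1 and 46.6, pericyte markers 10.7 and 33.0, adipocyte markers 8.12 and 61.7, and red-cell globins 424 and 9.40 CPM, and their part in the result was not tested.

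All 3 measured IFIT members were higher in fibroblasts. Ifit2 stood at 3.26 CPM in WT (57 UMIs) and 17.9 CPM in KO (323 UMIs), a ratio of 5.48 (4.13 to 7.40). Irgm1 stood at 12.9 and 56.0 CPM, a ratio of 4.33 (3.75 to 5.03), with Iigp1 (18.5 and 58.8 CPM, 3.18-fold), Igtp (3.61-fold) and Irgm2 (3.37-fold) beside it. Oasl2 (2.00 and 8.96 CPM, 4.48-fold) and Rsad2 (2.17 and 9.51 CPM, 4.38-fold) completed the 4 highest by interval bound. All 4 transcription factors were higher, Irf1 from 84.2 to 170 CPM (2.02-fold) and Irf9 2.71-fold.

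The fibroblast members with the largest UMI totals were not called. Ifitm3 was at 855 CPM in WT skin and 1103 CPM in KO (1.29-fold), Ifi204, a DNA sensor, at 262 and 248 CPM (ratio 0.948), and Cxcl10 at 192 and 142 CPM (ratio 0.738). The ISG15 system was called in 0 of 3 members, with Isg15 at 16.4 and 22.8 CPM. In thinned fibroblasts, Irgm1 was seen in 1.23% of WT and 4.03% of KO cells, and Iigp1 in 1.28% and 4.29%.

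Monocytes and macrophages (735 WT and 671 KO cells) had another pattern, with 22 of 41 measured members higher and 2 lower. Of the 10298 genes measured there, 11.0% were higher and 8.52% lower. The median log2 ratio of the members was 0.79, against 0.05. Median depths were 9371 and 6747 UMIs per cell. Keratinocyte markers summed to 992 CPM in WT and 560 CPM in KO macrophages and neutrophil markers to 46.2 and 26.4 CPM, and their part was not tested.

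By interval bound Oasl2, Cxcl9, Isg15 and Samd9l came first in macrophages, and no IFIT member was called. Oasl2 stood at 1.68 CPM in WT (12 UMIs) and 9.08 CPM in KO (43 UMIs), a ratio of 5.42 (2.81 to 11.3). Oasl1, which restrains IRF7 translation, stood at 92.6 and 217 CPM (2.34-fold). Isg15 stood at 29.2 and 81.1 CPM, a ratio of 2.78 (2.34 to 3.30), and Samd9l at 46.1 and 122 CPM, a ratio of 2.65 (2.31 to 3.04). Ifi27l2a, which encodes a small interferon-induced membrane protein, was at 102 and 232 CPM (2.29-fold) and Ifi204 at 142 and 265 CPM (1.87-fold). In thinned cells Ifi27l2a was seen in 8.03% of WT and 17.7% of KO macrophages.

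The chemokines of macrophages parted. Cxcl9 was at 2.24 CPM in WT (16 UMIs) and 9.50 CPM in KO (45 UMIs), a ratio of 4.25 (2.36 to 8.06), whereas Cxcl10 was at 102 and 44.6 CPM, 2.30-fold lower in KO (1.97 to 2.69). Ifitm3, at 288 and 171 CPM, was 1.68-fold lower (1.55 to 1.82). Rsad2 (107 and 86.1 CPM) and Ifit1 (59.1 and 62.7 CPM) were not called.

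In keratinocytes (6513 WT and 3617 KO cells), 20 of 41 measured members were called higher and none lower, against 13.1% and 10.1% of 15611 genes. The median log2 ratio was 0.62, against 0.05 over all genes. The libraries differed most in depth here, with medians of 6423 UMIs per WT and 16013 per KO cell. Hair-follicle markers summed to 7834 CPM in WT and 16493 CPM in KO keratinocytes, and without cells high in those markers (5897 WT and 2880 KO cells) 18 of the 20 members were still called higher.

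Irf1 was the keratinocyte member with the most UMIs after Ifitm3 and stood at 79.1 CPM in WT (8312 UMIs) and 203 CPM in KO (15516 UMIs), a ratio of 2.57 (2.50 to 2.64). Ifi27l2a stood at 4.06 and 21.4 CPM, a ratio of 5.26 (4.72 to 5.86), and Isg15 at 7.04 and 25.8 CPM, a ratio of 3.66 (3.36 to 3.99). Gbp5 gave 5 and 23 UMIs (6.33-fold, 2.35 to 21.3). Ifitm3 (875 and 762 CPM), Cxcl10 (57.5 and 78.8 CPM) and Cxcl9 (9.55 and 8.04 CPM) were not called. At equal depth Irf1 was seen in 8.98% of WT and 17.4% of KO keratinocytes and Isg15 in 0.891% and 2.63%.

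Low keratinocyte values need the free RNA of the suspension beside them. From other lineages' markers, keratinocytes read 8.49% in WT and 4.04% in KO of the level those markers have over all kept cells. At the same share, 3 of the 20 higher members, Ifit2, Ifit3 and Iigp1, were at or under the level that free RNA would give in KO. In vascular endothelium that share was 3.51% and 2.70%, and none of the 37 higher members was at or under it in KO.

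T cells (175 WT and 467 KO cells) held enough UMIs for 19 members, of which 2 were called higher and none lower, against 9.65% and 3.76% of 7792 genes. Samd9l stood at 30.8 CPM in WT (23 UMIs) and 66.7 CPM in KO (127 UMIs), a ratio of 2.16 (1.38 to 3.54). Ifi27l2a stood at 22.8 and 40.9 CPM (17 and 78 UMIs), a ratio of 1.80 (1.05 to 3.24), which was 0.852 and no longer called without the 10% of cells with most UMIs. Irf1 (52.3 and 50.4 CPM) was not called, and Ifitm3 (53.6 and 46.2 CPM) lay under its free-RNA level of 74.2 and 62.0 CPM. Shares called higher in T cells were near the background. Markers of natural killer cells summed to 235 CPM in WT and 90.3 CPM in KO T cells, and keratinocyte markers to 1963 and 1157 CPM, and their part was not tested. In melanocytes (60 WT and 69 KO cells) 3 members, Ifitm3, Gbp2 and Bst2, were measured and none was called.

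Across the 6 classes with more than 3 measured members, Igtp, Iigp1, Irf1, Irf9, Irgm1 and Irgm2 were each called higher in 5, all but T cells. In T cells Iigp1 and Irgm2 were under the UMI minimum and so could not be called. In keratinocytes Iigp1 was at or under the level that free RNA would give in KO. Cxcl10 was called higher in vascular endothelium and lower in macrophages, and Ifitm3 was called in macrophages alone among these 6. The compared classes held 84.6% of WT and 77.2% of KO member UMIs without Ifitm3.

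**Figure D5:**
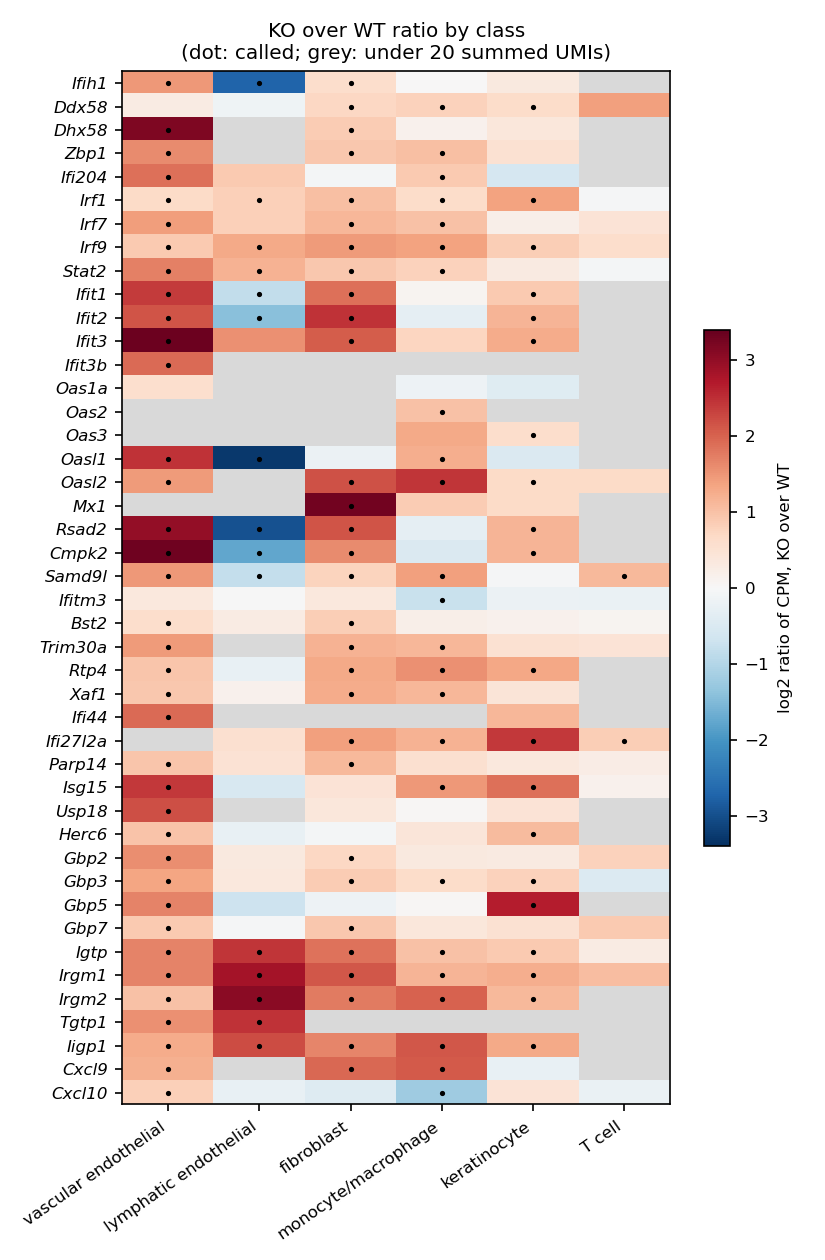
Log2 ratio of KO over WT for every member (rows, by role) in 6 compared classes (columns), with blue for lower and red for higher in KO, a dot where called, and grey where fewer than 20 summed UMIs were counted. All 40 measured members are over 0 in the vascular column, the lymphatic column holds both signs, and 19 members are measured in the T cell column.

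The rest of the pathway was read from lists of 21 ligands, 13 receptor and signalling genes, 17 genes of interferon induction and 59 other interferon-stimulated genes, Ifit3b being also a member. Over all kept cells the ligands gave 1449 UMIs in WT and 2376 in KO, of which 1293 and 2148 lay in keratinocytes. Few of them came from Ifnb1 and the Ifna genes. Ifnb1 gave 7 UMIs over all kept WT cells and 0 over the KO cells, which allows up to 0.0245 CPM, and all Ifna genes together gave 12 and 6 UMIs. Ifnk, the interferon of keratinocytes, was at 11.7 CPM in WT keratinocytes and 27.8 CPM in KO keratinocytes, a ratio of 2.38 (2.22 to 2.55). Of the 2 ligands measured in keratinocytes, Ifnk was called higher and the other lower. Ifng in T cells was at 46.9 and 36.2 CPM (35 and 69 UMIs, ratio 0.772) and was not called. Cells with at least 3 markers of plasmacytoid dendritic cells, known as strong producers of type I interferon, numbered 0 in WT and 2 in KO. Tlr7, the imiquimod receptor, was at 28.6 and 22.8 CPM in macrophages and was not called.

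Of the receptor genes, those of the type I and gamma receptors were lower or not called. Ifnar1 was lower in KO in vascular endothelium (59.4 and 24.5 CPM, 2.42-fold lower), lymphatic endothelium (45.9 and 18.2 CPM, 2.52-fold lower) and macrophages (76.1 and 45.8 CPM, 1.66-fold lower). Ifnar2 was lower in vascular endothelium (103 and 62.0 CPM) and in T cells (54.9 and 28.9 CPM). Ifngr1 and Ifngr2 were lower in macrophages (1.64-fold and 1.66-fold) and in lymphatic endothelium (2.02-fold and 2.29-fold). Of the signalling genes, Jak2 (232 and 497 CPM, 2.14-fold) and Socs1 (1.87-fold) were higher in vascular endothelium. Ifnlr1, the receptor of interferon lambda, was higher in keratinocytes (2.88 and 5.29 CPM, 1.84-fold), as was Socs3 (92.8 and 184 CPM).

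Among the other interferon-stimulated genes, to be read against the shares of all genes given above for each class, vascular endothelium had 46 measured, 36 higher and 2 lower, with a median log2 ratio of 1.16. Cd274, the checkpoint ligand PD-L1, was at 96.8 CPM in WT skin and 1168 CPM in KO, a ratio of 12.1 (9.57 to 15.4), and Ifi207 at 32.3 and 321 CPM (9.94-fold). Ifitm2 was lower (1698 and 893 CPM). In lymphatic endothelium 14 of 35 were higher and 2 lower, with the GTPases Tgtp2 (0 and 26 UMIs) and Ifi47 (0 and 23 UMIs) first among the higher. In fibroblasts 12 of 47 were higher and 3 lower, led by Dtx3l (2.63-fold) and Parp9 (2.51-fold), with Ifitm1 lower (412 and 158 CPM). In macrophages 11 of 48 were higher and 2 lower, with Adar 2.43-fold higher, Ifi207 at 490 and 901 CPM, and Ifitm1 (93.2 and 21.3 CPM) and Ifitm2 (1340 and 740 CPM) lower. Keratinocytes had 3 of 50 higher and 8 lower, beside 13.1% and 10.1% of all genes, with Slfn2 (65.3 and 12.7 CPM, 5.14-fold lower) and Ifitm1 (12.4 and 2.59 CPM, 4.78-fold lower) among the lower. T cells had 1 of 36 higher, Trafd1 (2.23-fold), and 2 lower, beside 9.65% and 3.76%, with Epsti1 at 20 and 11 UMIs (4.64-fold lower). Differences between classes in these counts were not tested. Ifitm1 was also lower in lymphatic endothelium (96.5 and 47.2 CPM). In melanocytes Tapbp, a peptide-loading gene, gave 13 and 25 UMIs (2.19-fold higher) and Irak1, a Toll-like receptor kinase gene, 17 and 5 (2.99-fold lower).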

How the data were processed

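Single-cell RNA libraries of imiquimod-treated back skin were used, 1 WT and 1 KO. The authors deposited matrices of raw UMI counts, genes by cell barcodes, not normalized, per the file headers. Per the submitters' processing notes, Cell Ranger 3.0.2, Seurat 3.0 and mm10 were used; the matrix header has version 3.1.0. Kept cells had 200 or more genes and mitochondrial UMIs of 10% or less. From 1000 UMIs up, a cell joined a class when at least 3 markers were detected and their share of UMIs passed a cutoff. No other gate could be passed, with exceptions for classes that share markers. A lymphatic endothelial cell could also pass the vascular gate, a pericyte the fibroblast gate and a Langerhans cell the macrophage gate. Cells otherwise passing several gates (772 WT, 363 KO) or none (855, 1119) were left out. No doublet caller was run. UMIs were summed per class and library (CPM), with exact conditional binomial, Poisson and Clopper-Pearson 95% intervals, and 0 counts were set against 3. The calls were tested on simulated data that held Poisson counting error only. Such data cannot show how the calls fare with variation between cells, mice or libraries. The members and lists were chosen with earlier results of these data known, and marker cutoffs were set after the data were seen. Full values were given for the 3 members with most UMIs, the 4 highest and the 3 lowest called in each class, ordered by the interval bound nearest 1, and values for pathway genes by a like rule, not all of them printed. Python 3.11.15, numpy 2.4.6, scipy 1.17.1, pandas 2.3.3 and matplotlib 3.10.9 were used.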

Additional observations from a re-analysis of the deposited data

Results flagged for a closer look

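Members called in opposite directions in 2 cell classes were singled out. The difference between the classes was not tested, since each genotype has 1 library. For vascular and lymphatic endothelium, the log2 ratios of KO over WT were 1.47 and -2.73 for Ifih1, 2.38 and -0.84 for Ifit1, 2.13 and -1.43 for Ifit2, and 2.45 and -3.28 for Oasl1. They were 2.99 and -2.96 for Rsad2, 3.30 and -1.75 for Cmpk2, and 1.48 and -0.81 for Samd9l. Without the WT lymphatic cell that held 52.2% of the Rsad2 UMIs, Ifih1 and Rsad2 were still called lower in lymphatic endothelium and the other 5 were not. Cxcl10 had log2 ratios of -1.20 in macrophages and 0.81 in vascular endothelium.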

How the results depend on the processing

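No paired analysis was possible because each genotype has 1 library, and no replicate could be left out. Over the alternatives the median log2 ratio of members ranged from 1.24 to 1.64 in vascular endothelium, 0.97 to 1.14 in fibroblasts, 0.63 to 0.97 in macrophages, 0.35 to 0.71 in keratinocytes, 0.26 to 0.55 in T cells and 0.11 to 0.58 in lymphatic endothelium. Thinning cells to 1000 UMIs leaves fewer members measured. The members higher in KO were then 16 of 30 in vascular endothelium, all among the 37, and 10 of 25 in keratinocytes, all among the 20. They were 10 of 19 in macrophages, of which 8 were among the 22, 0 of 4 in T cells and 1 of 8 in lymphatic endothelium. The lower ones were 2 in keratinocytes, 1 in macrophages and 1 in lymphatic endothelium. Shares of all genes called were computed for the reported setting alone, so counts under the alternatives have no background beside them. Lower members in keratinocytes were 1 on the median-ratio scale, with a stricter gate, without the 10% of cells with most UMIs, with free RNA subtracted and without cells high in hair-follicle markers, 2 without each member's highest cell and 4 with cells weighted equally. The cause was not tested. T cells had 1 higher member on the median-ratio scale and 1 without each member's highest cell. The lower members in lymphatic endothelium were 2 without the 10% of cells with most UMIs, 2 without each member's highest cell and 2 without the WT cell with most Rsad2. Of the 8 higher members there, 5 were still called without the 10% of cells with most UMIs, and 8 in each of the other 2 settings. At 50 or more summed UMIs, 6 of the 8 higher and 6 of the 7 lower were kept, and with cells weighted equally 7 and 5. The ratio of Ifi27l2a in T cells was 0.852 without the 10% of cells with most UMIs, against 1.80, and the cause was not tested. Of 371 alternative values of named ratios, 300 lay within the interval of the reported value, 70 moved beyond it and 1 reversed. Leaving out each member's highest cell, the hair-follicle, pericyte, Ackr1 or Sele and single lymphatic cell settings and the lymphatic alternatives were chosen after seeing the data. At the depth used, 19 members were measured in T cells and 3 in melanocytes.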

Other observations

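Cells outside the compared classes carried members too. The 363 KO cells that passed several gates read 4695 CPM of members without Ifitm3 and held 14.4% of the library's member UMIs, while the 772 such WT cells read 896 CPM and held 7.98%. Schwann cells (25 WT and 145 KO cells) and pericytes (47 and 157 cells) were too few in WT to compare. The IFIT members summed to 66.2 CPM in WT (9 UMIs) and 212 CPM in KO (111 UMIs) in Schwann cells, and to 14.0 CPM (5 UMIs) and 126 CPM (97 UMIs) in pericytes. The guanylate-binding and immunity-related GTPases summed to 287 and 832 CPM in Schwann cells and to 255 and 488 CPM in pericytes.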
